A study of Rattus norvegicus with 9 samples.

Results

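Enzymes of fatty acid degradation were examined in the left lungs of rats after ischemia and reperfusion. The 38 genes are the rows of the deposited table that its KEGG column assigns to the fatty acid degradation pathway and whose mean over the 9 libraries was at least 0.5 FPKM (fragments mapped to a gene, scaled by its length and by the depth of the library). Acsl4 was not included. They are 38 of 44 such rows and of the 15402 genes tested, and the whole table holds 22833 genes. The rule used no difference between groups. The members with the lowest means were Ehhadh, Cpt1c and Cyp4a1, at 1.54, 1.33 and 0.616 FPKM. The rows with the highest means under the limit were Acsl6 and Aldh1b1, at 0.276 and 0.141 FPKM. The other 4 rows under the limit were Cyp4a3, LOC316124, Acsbg2 and Cyp4a2, with means of 0.00940 to 0.0681 FPKM.

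RNA-seq covered 3 libraries in each of the I-post C, IR and Sham groups, all from male, specific pathogen free Sprague-Dawley rats of 8 weeks. In the IR group a clamp closed the hilum of the left lung for 30 min, and 2 h of reperfusion followed. The I-post C (ischemic postconditioning) group had the same clamping and then 3 short cycles, each of them 30 s without and 30 s with blood flow, ahead of the 2 h of reperfusion. In the Sham group the hilum was freed but not clamped, and every group, Sham included, had fasting, anesthesia, heparin, ventilation and thoracotomy. The study had 6 rats in a group, and the sources do not say which of them gave each library, so p-values measure only the spread between these libraries.

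Fatty acids are broken down mainly in mitochondria. Acyl-CoA synthetases activate them, carnitine palmitoyltransferases carry long chains across the mitochondrial membranes, and a repeated cycle of dehydrogenation, hydration, a further dehydrogenation and thiolysis releases acetyl-CoA. Peroxisomal oxidases start the same cycle on very long and branched chains, while omega-hydroxylases with alcohol and aldehyde dehydrogenases attack the other end of the chain. In the lung, alveolar type 2 cells use fatty acids both as fuel and as building blocks of surfactant lipids. Many of these genes are known targets of PPAR alpha, a nuclear receptor that binds with RXR to a DR1 element, a direct repeat of the half-site AGGTCA with 1 base between the repeats.

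Promoters, taken as the 250 bases before and 50 bases after the annotated start in RefSeq on the GRCr8 build, were found by symbol for 30 of the 38 genes. Aldh2, Acaa2, Acadl, LOC100911186, Cpt1b, Cpt1c and Cyp4a1 were among those with no entry. A DR1 without mismatch in its 12 half-site bases, sought on both strands, was in 0 of the 30 promoters and in 0.0538% of all 33469. With at most 1 mismatch it was in 1 promoter, that of Acadvl, against 0.439% of all, and with at most 2 mismatches in 3 promoters, those of Acadvl, Adh6 and the entry named Echs1, against 3.77% of all. That entry lies on the minus strand of chromosome 1, as LOC100911186 does on rn6, while the Echs1 row of the table lies on the plus strand, so it is uncertain to which of these similar genes it belongs. At least 1 half-site was in 7 promoters (23.3%), against 16.2% of all. The median share of G and C bases was 60.2% in the members' promoters and 51.7% in all. Promoters of a similar base content were not compared. A match is a description of these letters and not a binding site. The promoter of Adh6 is shown because Adh6 had one of the smallest p-values below, and that of Acadvl, chosen after its match was seen, because it was closest to the DR1. Both run 5′ to 3′ on the strand of the gene, and capitals mark the bases matched to the half-sites.
Adh6, chr2:229576386-229576685, plus strand, match from base -2: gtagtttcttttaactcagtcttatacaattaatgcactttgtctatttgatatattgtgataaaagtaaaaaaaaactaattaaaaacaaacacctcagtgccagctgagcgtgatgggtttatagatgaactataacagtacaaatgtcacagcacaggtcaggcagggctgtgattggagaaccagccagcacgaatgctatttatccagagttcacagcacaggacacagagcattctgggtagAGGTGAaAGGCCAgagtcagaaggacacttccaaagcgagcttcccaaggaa
Acadvl, chr10:55236656-55236955, minus strand, match from base -17: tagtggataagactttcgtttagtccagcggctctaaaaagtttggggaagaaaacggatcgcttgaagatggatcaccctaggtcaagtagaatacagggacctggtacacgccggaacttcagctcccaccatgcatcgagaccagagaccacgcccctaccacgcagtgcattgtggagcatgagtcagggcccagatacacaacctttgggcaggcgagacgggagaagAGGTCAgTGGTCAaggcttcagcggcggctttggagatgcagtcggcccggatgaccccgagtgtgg

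Hadha and Hadhb, which encode the alpha and beta subunits of the mitochondrial trifunctional protein, lie head to head. Their annotated starts are 300 bases apart on opposite strands, at 31907801 and 31907500 of chromosome 6 of GRCr8, and 7.65% of the 33469 promoters have an opposite start at least as near. The 200 bases that the Hadha and Hadhb windows share are shown on the strand of Hadha, with the closest DR1 match, at 3 mismatches, in capitals.
Hadha and Hadhb, chr6:31907551-31907750: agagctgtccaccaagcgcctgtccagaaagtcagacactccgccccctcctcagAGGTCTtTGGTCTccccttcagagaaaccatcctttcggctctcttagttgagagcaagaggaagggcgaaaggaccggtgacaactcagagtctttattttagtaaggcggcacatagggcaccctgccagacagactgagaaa
Hadha was also the steadiest of the 38 genes, with a coefficient of variation of 6.35% over the 9 libraries. Hadhb exceeded Hadha in 9 of 9 libraries, by a ratio of 1.16 to 1.70.

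The levels of these transcripts were mostly above those of other genes. The median of the 38 mean values was 17.3 FPKM, against 7.95 FPKM over all 15402 genes, and 24 of the 38 (63.2%) reached 10 FPKM, against 44.0% of all genes. Aldh2, the mitochondrial aldehyde dehydrogenase, was highest at a mean of 190.2 FPKM. It was followed by Acsl5, an acyl-CoA synthetase, at 99.7 FPKM, and by Hadhb at 82.0 FPKM. The median coefficient of variation was 25.4% for the members, against 30.1% over all genes. Genes of a similar level were not compared, so this difference cannot be told apart from that in level.

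**Figure D1:**
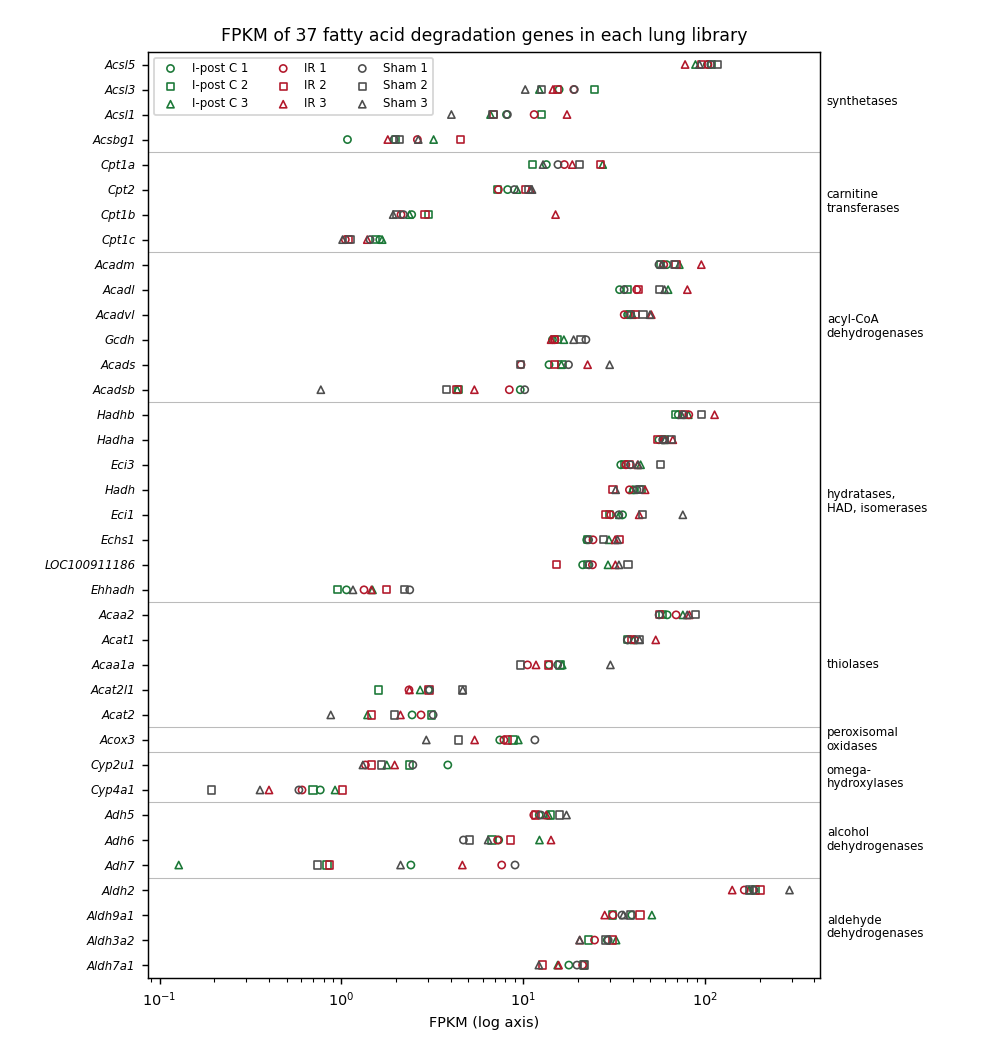
FPKM (log axis) of 37 of the 38 genes in the 9 libraries, grouped by enzyme role. Color gives the group and marker shape the replicate. Aldh2, with a mean of 190.2 FPKM, lies farthest right and Cyp4a1, with 0.616 FPKM, is the lowest gene kept, while Adh7 spans the widest range.

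Total counts ranged from 45110590 to 51214941 per library. Lung markers were present in every library, and those of alveolar type 2 cells (7 genes) summed to 21940 to 27636 FPKM in I-post C, 24223 to 28885 FPKM in IR and 24237, 41258 and 44489 FPKM in Sham libraries. IR 3 and Sham 3 stood apart from the other libraries on the principal components, IR 3 at 70.8 on the second and Sham 3 at 100.8 on the first. All 8 skeletal muscle markers in the table were highest in IR 3, where they summed to 4300 FPKM, against 11.2 to 77.5 FPKM in the other 8 libraries. Cardiomyocyte markers (8 genes, 5 of them highest in IR 3) summed to 77.4 FPKM in IR 3 and 8.88 to 23.8 FPKM elsewhere. The share of counts from mitochondrial genes was 8.20% in IR 3 and 3.03% to 5.96% elsewhere. Neutrophil markers (5 genes) summed to 159 to 1235 FPKM in I-post C, 280.1 to 793 FPKM in IR and 82.9 to 138 FPKM in Sham libraries. In bulk tissue, fewer cells of a type and less RNA per cell cannot be told apart. The part that these other cells play in the values that follow was not tested, and the main values that rest on IR 3 or Sham 3 are also given without that library.

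No member passed the test in any comparison. The test was edgeR's quasi-likelihood test on the counts of all 9 libraries, with Benjamini-Hochberg adjusted p-values over the 15402 genes and a threshold of 0.05. In IR against Sham 0 of 38 members passed, against 47 of all genes (0.305%), of which 46 (0.299%) had a log2 fold change of at least 1 in size, and 4 members had an unadjusted p under 0.05, against 12.2% of all genes. For I-post C against IR, 0 members and 0 genes (0.0%) passed, and 1 member had an unadjusted p under 0.05, against 3.01% of all genes. For I-post C against Sham, 0 members and 0 genes (0.0%) passed, with 2 members at an unadjusted p under 0.05, against 6.91% of all genes. DESeq2, and limma on log2(FPKM + 0.5), also called 0 members in each comparison. Over all genes DESeq2 on the 9 libraries called 3.31% in IR against Sham, 0.123% in I-post C against IR and 1.01% in I-post C against Sham. On the 6 libraries of a comparison DESeq2 called 2.36%, 0.435% and 0.76% in the same order of comparisons, and limma called 0.247%, 0.0% and 0.00649%. The members' share of small p-values was thus near or below the share of all genes. The 3 comparisons share libraries, so their values are not independent.

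The log2 fold changes (log2FC) of the members had a median of 0.06 in IR against Sham, with 22 of 38 above 0, while all genes had a median of -0.02 and 47.9% above 0. That median was -0.11, with 16 above 0, when IR 3 was left out. The median for I-post C against IR was -0.20 with 9 of 38 above 0, while over the whole set of genes tested it was -0.01 with 47.6% above 0. Without IR 3 it was -0.03, with 16 above 0 and a median of -0.01 over all genes. For I-post C against Sham it was -0.16 with 15 of 38 above 0, while the whole set had -0.03 with 47.2% above 0. The lower position of the members in I-post C against IR was therefore measured with IR 3 in the IR group and was close to that of all genes without it. The 95% interval of the log2FC lay within -1 and 1 for 20 members in IR against Sham (42.1% of the genes tested), 18 in I-post C against IR (51.1%) and 19 in I-post C against Sham (44.5%).

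**Figure D2:**
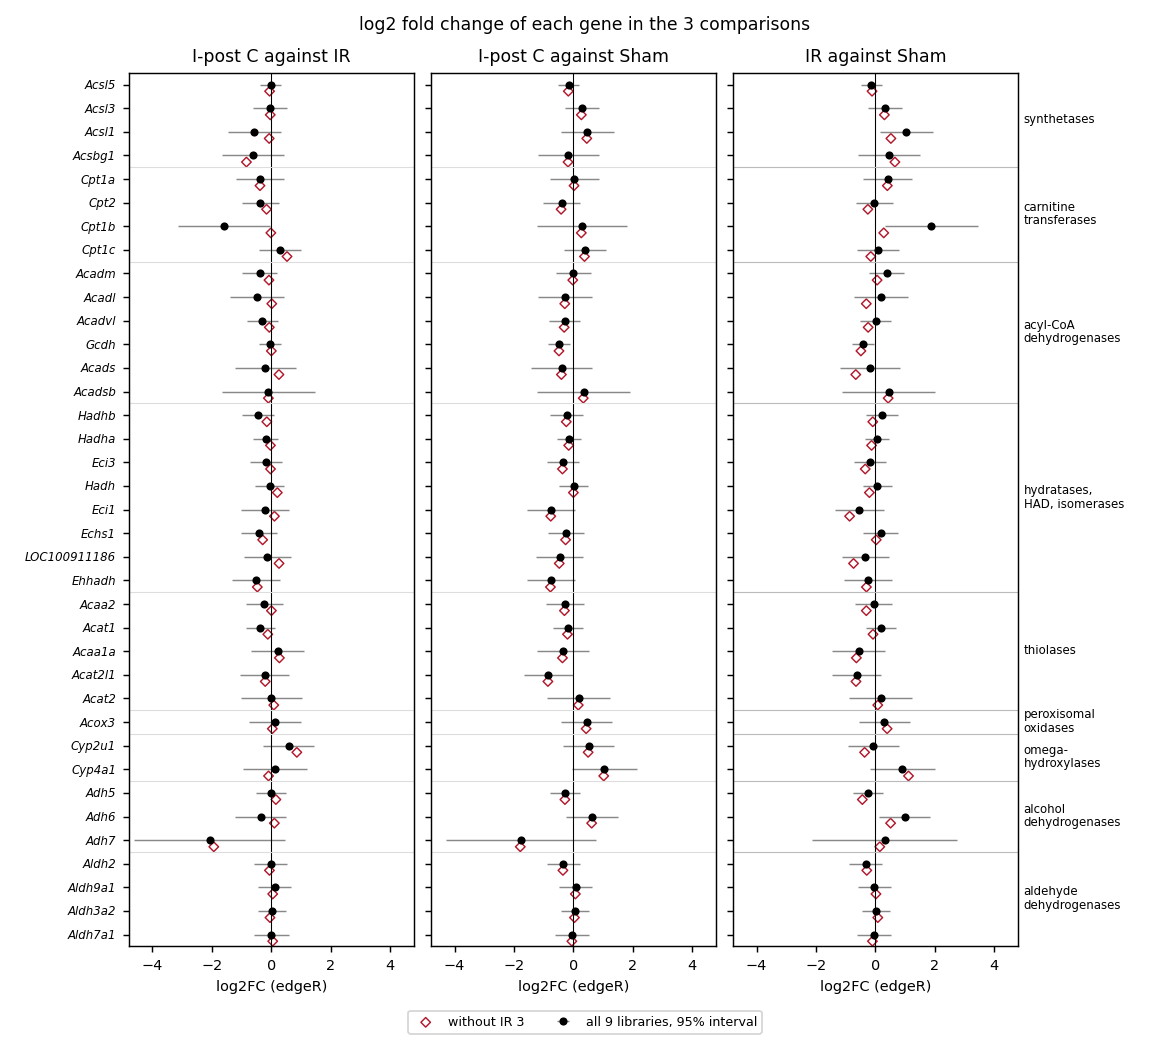
log2FC of each of 37 genes from edgeR with its 95% interval (black points, all 9 libraries) and without IR 3 (open diamonds), for I-post C against IR, I-post C against Sham and IR against Sham. Most intervals cross 0. Cpt1b moves from 1.88 to 0.28 in IR against Sham and from -1.60 to -0.01 in I-post C against IR when IR 3 is left out.

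Among the acyl-CoA synthetases, which attach coenzyme A to the fatty acid, Acsl5 dominated. Acsl5 had 103, 109 and 88.8 FPKM in the I-post C libraries, 104, 95.9 and 77.9 FPKM in the IR libraries and 108, 117 and 93.5 FPKM in the Sham libraries. It exceeded Acsl1 in 9 of 9 libraries by a ratio of 4.46 to 23.2, and its groups overlapped in each comparison. Acsl1, the main isoform of oxidative tissues, had 8.10, 12.6 and 6.62 FPKM in I-post C, 11.5, 6.87 and 17.4 FPKM in IR and 8.19, 6.83 and 4.03 FPKM in Sham libraries. IR 3 was its highest library and Sham 3 its lowest, and the groups overlapped. The log2FC of Acsl1 in IR against Sham was 1.04 ± 0.40 (SE, edgeR unadjusted p = 0.0281, adjusted p = 0.343). It was 0.52 without IR 3 and 0.31 without IR 3 and Sham 3. Acsl3 lay between 10.3 and 24.8 FPKM and the brain-type synthetase Acsbg1 between 1.08 and 4.54 FPKM, with overlapping groups.

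Carnitine palmitoyltransferase 1 commits long chains to mitochondrial oxidation, and its liver-type isoform Cpt1a was the main form in the lung. Cpt1a had 13.4, 11.3 and 27.4 FPKM in I-post C, 16.9, 26.6 and 18.7 FPKM in IR and 15.6, 20.3 and 12.9 FPKM in Sham libraries. I-post C 3 and IR 2 were its highest libraries, and these were also the libraries with the highest neutrophil marker sums, 1235 and 793 FPKM. The order did not hold further down. Sham 2, the next highest for Cpt1a, had a neutrophil sum of 138 FPKM, and IR 1, lower for Cpt1a, had 280 FPKM. The part of neutrophils in the values of Cpt1a was not tested. Its log2FC was 0.04 in I-post C against Sham and 0.41 in IR against Sham, both with overlapping groups. With single libraries left out, the value of Cpt1a in I-post C against Sham lay between -0.48 and 0.29, and in IR against Sham between 0.19 and 0.64, the lowest without IR 2.

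Cpt1b, the muscle isoform, had the largest log2FC of the members in IR against Sham. Its values were 2.44, 3.02 and 2.37 FPKM in I-post C, 2.13, 2.89 and 15.1 FPKM in IR and 2.196, 2.02 and 1.93 FPKM in Sham libraries. IR 3 held 5.00 times the level of the next highest library, and IR 1 lay within the range of the Sham libraries. The log2FC of Cpt1b was 1.88 ± 0.69 in IR against Sham (edgeR unadjusted p = 0.0232, adjusted p = 0.326) and -1.60 ± 0.69 in I-post C against IR (unadjusted p = 0.0442, adjusted p = 1.0). Without IR 3, the library with the skeletal muscle transcripts, they were 0.28 and -0.01. The ratio of Cpt1a to Cpt1b was 1.24 in IR 3 and 3.74 to 11.6 in the other 8 libraries. On the rn6 build Cpt1b lies on the minus strand of chromosome 7 (130395194 to 130405347) and overlaps Chkb on the same strand by 516 bases, so reads there may belong to either gene.

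Cpt1c, the neuronal isoform, was low but even within groups, at 1.63, 1.55 and 1.68 FPKM in I-post C, 1.05, 1.09 and 1.39 FPKM in IR and 1.44, 1.12 and 1.02 FPKM in Sham libraries. All 3 I-post C libraries lay above every other library. In counts its log2FC was 0.30 ± 0.31 in I-post C against IR and 0.39 ± 0.31 in I-post C against Sham, with edgeR adjusted p-values of 1.0 and 0.810. Without IR 3 the value in I-post C against IR was 0.53, and without IR 1 it was 0.17. Genes whose FPKM did not overlap in this way, with the I-post C libraries higher, were 2 of 38 members in I-post C against IR, Cpt1c and Acaa1a (11.2% of the genes tested). Of the members 0 had I-post C libraries all below the IR libraries (2.59% of the genes tested). In I-post C against Sham 4 of 38 lay above (5.56% of the genes tested): Cyp4a1, Cpt1b, Adh6 and Cpt1c. Cpt2, of the inner membrane, had a mean of 9.35 FPKM and overlapping groups.

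**Figure D3:**
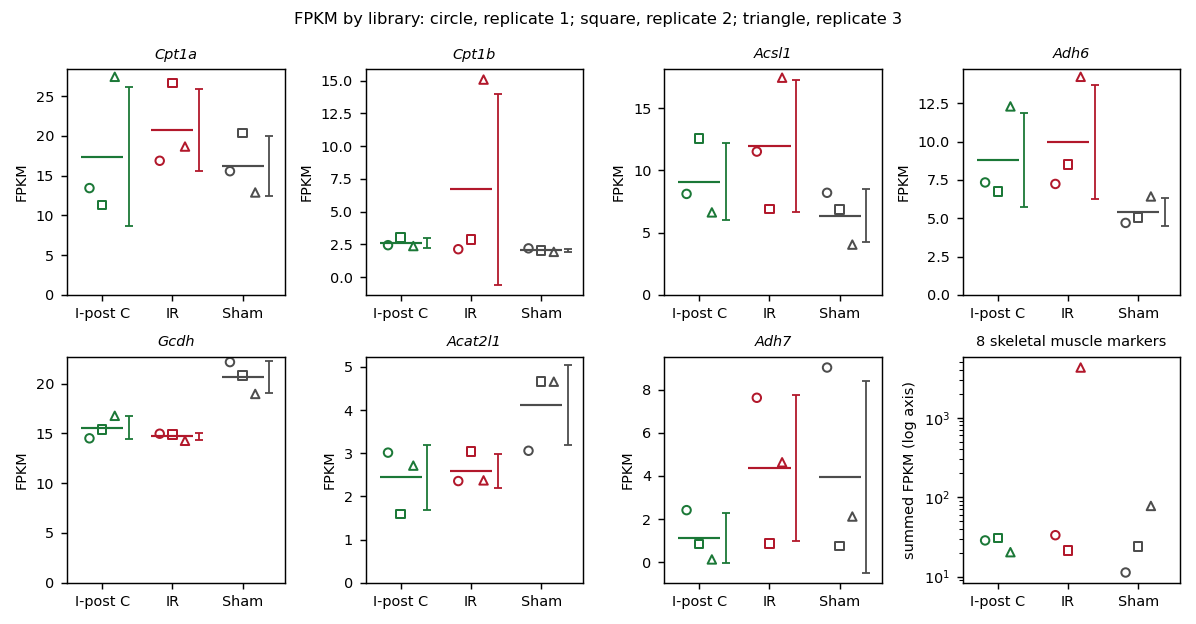
FPKM of 7 genes in the I-post C, IR and Sham libraries, with the mean (line) and SD (bar) of each group of 3, and the summed FPKM of 8 skeletal muscle markers on a log axis. Cpt1b and the muscle markers share their highest library, IR 3 (15.1 and 4300 FPKM), and Gcdh is lower in all I-post C and IR libraries than in any Sham library.

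The acyl-CoA dehydrogenases, which take the first electrons from the chain, were led by Acadm, the medium-chain enzyme. Acadm had 61.6, 56.9 and 72.4 FPKM in I-post C, 59.4, 69.5 and 95.6 FPKM in IR and 55.9, 68.0 and 58.1 FPKM in Sham libraries. Its log2FC in IR against Sham was 0.39 ± 0.26 and 0.06 without IR 3. The long-chain enzyme Acadl (mean 50.2 FPKM), the very long-chain enzyme Acadvl (42.2 FPKM) and the short-chain enzyme Acads (16.8 FPKM) had overlapping groups, as did Acadsb, for short branched chains (5.70 FPKM), which was listed at 0.771 FPKM in Sham 3 and at 3.80 FPKM or more elsewhere. Acadm, Acadl and Acadvl were all highest in IR 3.

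Gcdh was the member whose groups parted most evenly. It encodes glutaryl-CoA dehydrogenase, an enzyme of lysine and tryptophan breakdown that KEGG also places in this pathway, so it is not an enzyme of beta-oxidation itself. Gcdh had 14.5, 15.4 and 16.8 FPKM in I-post C, 15.0, 14.9 and 14.3 FPKM in IR and 22.2, 20.8 and 19.0 FPKM in Sham libraries. All 6 libraries from clamped lungs lay below all 3 Sham libraries, with means of 15.6 ± 1.14 FPKM in I-post C, 14.7 ± 0.384 FPKM in IR and 20.6 ± 1.60 FPKM in Sham (SD, n = 3 each).

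The log2FC of Gcdh was -0.42 ± 0.17 in IR against Sham (edgeR unadjusted p = 0.0325, adjusted p = 0.354) and -0.47 ± 0.17 in I-post C against Sham (unadjusted p = 0.0193, adjusted p = 0.667), and neither passed. With DESeq2 on all 9 libraries its adjusted p was 0.0906 in IR against Sham and 0.0915 in I-post C against Sham. These were the smallest of the members by that test and did not pass either. Both comparisons use the same Sham libraries. Between -0.49 and -0.37 in IR against Sham and between -0.55 and -0.42 in I-post C against Sham, the direction held when any single library was left out. Across the members, 2 of 38 had IR libraries all below the Sham libraries, Gcdh and Acat2l1, against 9.44% of all genes, and 2 of 38 had I-post C libraries all below the Sham libraries, the same genes, against 4.08% of all genes. Gcdh lies on chromosome 19 of rn6 (26000497 to 26006970, minus strand) and overlaps Syce2, a gene of the other strand, by 821 bases.

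Hydratases, hydroxyacyl-CoA dehydrogenases and isomerases carry the middle of the cycle and took 27.9% of the members' summed FPKM. Hadhb had 71.4, 69.1 and 81.1 FPKM in I-post C, 81.6, 76.2 and 113 FPKM in IR and 76.2, 95.4 and 74.3 FPKM in Sham libraries. Its log2FC in I-post C against IR was -0.44 ± 0.25 (edgeR unadjusted p = 0.104, adjusted p = 1.0), and -0.15 without IR 3, its highest library. All 8 genes of this role had a log2FC below 0 in I-post C against IR, with a median of -0.20, and the median was -0.02 without IR 3. This was not particular to the role, as 29 of the 38 members were below 0, while 47.6% of all genes were above 0. The 6 acyl-CoA dehydrogenases, 4 acyl-CoA synthetases and 3 alcohol dehydrogenases were all below 0 too.

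Eci1, a mitochondrial enoyl-CoA isomerase that handles unsaturated chains, had 35.3, 29.9 and 33.9 FPKM in I-post C, 30.4, 28.6 and 43.5 FPKM in IR and 33.6, 45.3 and 75.6 FPKM in Sham libraries. Sham 3 and Sham 2 were the highest libraries, as they were for the summed alveolar type 2 markers. Only 1 of those 7 markers was itself highest in Sham 3. The marker sums of alveolar type 1, club, ciliated and endothelial cells were highest in Sham 3 as well. The part of these cells in the values was not tested. The log2FC in I-post C against Sham was -0.75 ± 0.36 (edgeR unadjusted p = 0.0688, adjusted p = 0.745) and -0.30 without Sham 3. Ehhadh, the peroxisomal bifunctional enzyme, was low, with 1.07, 0.952 and 1.48 FPKM in I-post C, 1.33, 1.77 and 1.46 FPKM in IR and 2.38, 2.23 and 1.16 FPKM in Sham libraries. Its I-post C and Sham libraries overlapped through Sham 3, and its log2FC was -0.76 ± 0.36 (unadjusted p = 0.0619, adjusted p = 0.745) and -0.996 without Sham 3.

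Echs1, the short-chain enoyl-CoA hydratase, and LOC100911186, which the table describes as a mitochondrial-like enoyl-CoA hydratase, had nearly the same level in 7 of 9 libraries, at a ratio of 0.98 to 1.05. The ratio was 2.22 in IR 2 and 0.73 in Sham 2. How shared reads were assigned is not stated, so the split between Echs1 and LOC100911186 is uncertain, and their sum was 43.7 to 66.8 FPKM. On rn6 Echs1 also lies within the model of Zfp710, a gene on the same strand. Hadh and Eci3 had means of 40.0 and 41.3 FPKM and overlapping groups.

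Thiolases cut acetyl-CoA from the chain. The mitochondrial Acaa2 led them with 62.1, 58.5 and 75.7 FPKM in I-post C, 69.5, 56.4 and 82.1 FPKM in IR and 56.0, 88.8 and 80.0 FPKM in Sham libraries, and these ranges overlapped. Acaa1a, the peroxisomal thiolase, had 13.9, 15.98 and 16.4 FPKM in I-post C, 10.6, 13.8 and 11.8 FPKM in IR and 15.5, 9.71 and 30.2 FPKM in Sham libraries. Its I-post C libraries lay just above the IR libraries (13.86 against 13.82 FPKM at the closest), with a log2FC of 0.22 ± 0.39 (0.08 without IR 1), and its log2FC in IR against Sham was -0.57 ± 0.40 and 0.07 without Sham 3.

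Acat2l1, a relative of the cytosolic acetyl-CoA acetyltransferase Acat2, had 3.01, 1.60 and 2.71 FPKM in I-post C, 2.36, 3.04 and 2.37 FPKM in IR and 3.06, 4.66 and 4.66 FPKM in Sham libraries. The highest IR library and the lowest Sham library were at 3.04 and 3.06 FPKM, so the separation rested on a narrow gap. The log2FC of Acat2l1 was -0.84 ± 0.37 in I-post C against Sham (edgeR unadjusted p = 0.0473, adjusted p = 0.718) and -0.63 ± 0.37 in IR against Sham (unadjusted p = 0.121, adjusted p = 0.534). Acat2l1 and Acat2 are neighbors on chromosome 1 and may share reads, and Acat2l1 overlaps Tcp1, on the other strand, by 606 bases. Acat1, the mitochondrial acetoacetyl-CoA thiolase, had a mean of 41.6 FPKM and exceeded Acat2 in 9 of 9 libraries.

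Acox3, a peroxisomal oxidase of branched chains, had a mean of 7.34 FPKM and its lowest value, 2.93 FPKM, in Sham 3. Its groups overlapped in all 3 comparisons.

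The omega-hydroxylases were scarce. Cyp4a1, a fatty acid omega-hydroxylase of the rat and a classical PPAR alpha target, had 0.766, 0.699 and 0.923 FPKM in I-post C, 0.608, 1.01 and 0.400 FPKM in IR and 0.584, 0.193 and 0.357 FPKM in Sham libraries. The I-post C libraries lay above all Sham libraries, with a log2FC of 1.04 ± 0.49 (edgeR unadjusted p = 0.0604, adjusted p = 0.745), and the IR libraries overlapped both other groups. Cyp4a1 belongs to a family of similar genes, of which Cyp4a2 and Cyp4a3 were under the limit. Cyp2u1, which hydroxylates long chains, had 3.85, 2.38 and 1.78 FPKM in I-post C, 1.36, 1.46 and 1.96 FPKM in IR and 2.47, 1.67 and 1.31 FPKM in Sham libraries, with a log2FC of 0.59 ± 0.38 in I-post C against IR (unadjusted p = 0.161, adjusted p = 1.0), and 0.22 without I-post C 1, its highest library.

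Alcohol dehydrogenases included a member that was higher in every library from clamped lungs. Adh6 had 7.34, 6.75 and 12.3 FPKM in I-post C, 7.24, 8.52 and 14.2 FPKM in IR and 4.70, 5.05 and 6.42 FPKM in Sham libraries. All 6 libraries from clamped lungs lay above all 3 Sham libraries, and I-post C 3 and IR 3 were highest. Adh6 was the only member of the 38 with IR libraries all above the Sham libraries, against 5.62% of all genes. Its log2FC was 0.98 ± 0.39 in IR against Sham (edgeR unadjusted p = 0.0306, adjusted p = 0.350) and 0.51 without IR 3, and 0.63 ± 0.38 in I-post C against Sham (unadjusted p = 0.133, adjusted p = 0.765), the last being 0.28 without I-post C 3. On rn6 the Adh6 model on chromosome 2 (243550627 to 243687383, plus strand) contains the model of Adh6a on the same strand, so their reads may not be separated.

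Adh7, the class of epithelial surfaces, had the widest range of the members, with 2.41, 0.834 and 0.127 FPKM in I-post C, 7.63, 0.857 and 4.63 FPKM in IR and 9.03, 0.741 and 2.12 FPKM in Sham libraries. Each group spanned a wide range, and the log2FC of -2.08 ± 1.13 in I-post C against IR had a 95% interval from -4.62 to 0.47 (edgeR adjusted p = 1.0). It was -3.32 without I-post C 1. Adh5, which also reduces S-nitrosoglutathione, was even, with 12.3, 14.2 and 13.8 FPKM in I-post C, 11.5, 11.7 and 13.4 FPKM in IR and 12.5, 15.8 and 17.3 FPKM in Sham libraries.

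Aldehyde dehydrogenases took 23.7% of the members' summed FPKM. Aldh2 had 185, 190 and 175 FPKM in I-post C, 165, 201 and 141 FPKM in IR and 186, 175 and 292 FPKM in Sham libraries. Sham 3 was its highest library and IR 3 its lowest, and the log2FC in IR against Sham was -0.32 ± 0.25 (edgeR adjusted p = 0.650) and 0.00 without Sham 3. Aldh9a1, Aldh3a2 and Aldh7a1 had means of 37.2, 26.6 and 17.6 FPKM, and their groups overlapped in all 3 comparisons. Aldh3a2 oxidizes long-chain fatty aldehydes.

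Across the 9 libraries IR 3 carried the highest value of 10 members (26.3%), against 5.97% of all genes. These were Cpt1b, Acsl1, Acadm, Acadl, Acat1, Hadhb, Adh6, Hadh, Acadvl and Hadha. All 10 carry a mitochondrial GO term, as do 23 of the 38 members. IR 3 was also highest in skeletal muscle and cardiomyocyte marker sums and in the share of mitochondrial counts, as given above, and the part of these in the 10 values was not tested. Cpt1b stood at 5.00 times the next highest library there and the other 9 at 1.02 to 1.39 times. The related gene Fabp3, the fatty acid binding protein of heart and skeletal muscle, named here after its values were seen, had 216 FPKM in IR 3 and at most 3.45 FPKM elsewhere. IR 3 was the lowest library of 4 members (10.5%), Acsl5, Aldh2, Aldh9a1 and Gcdh, against 19.8% of all genes. Sham 3 held the lowest value of 11 members (28.9%), against 32.1% of all genes, and the highest of 6 (15.8%), against 23.9%. The shares of Sham 3 were thus not above those of all genes.

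**Figure D4:**
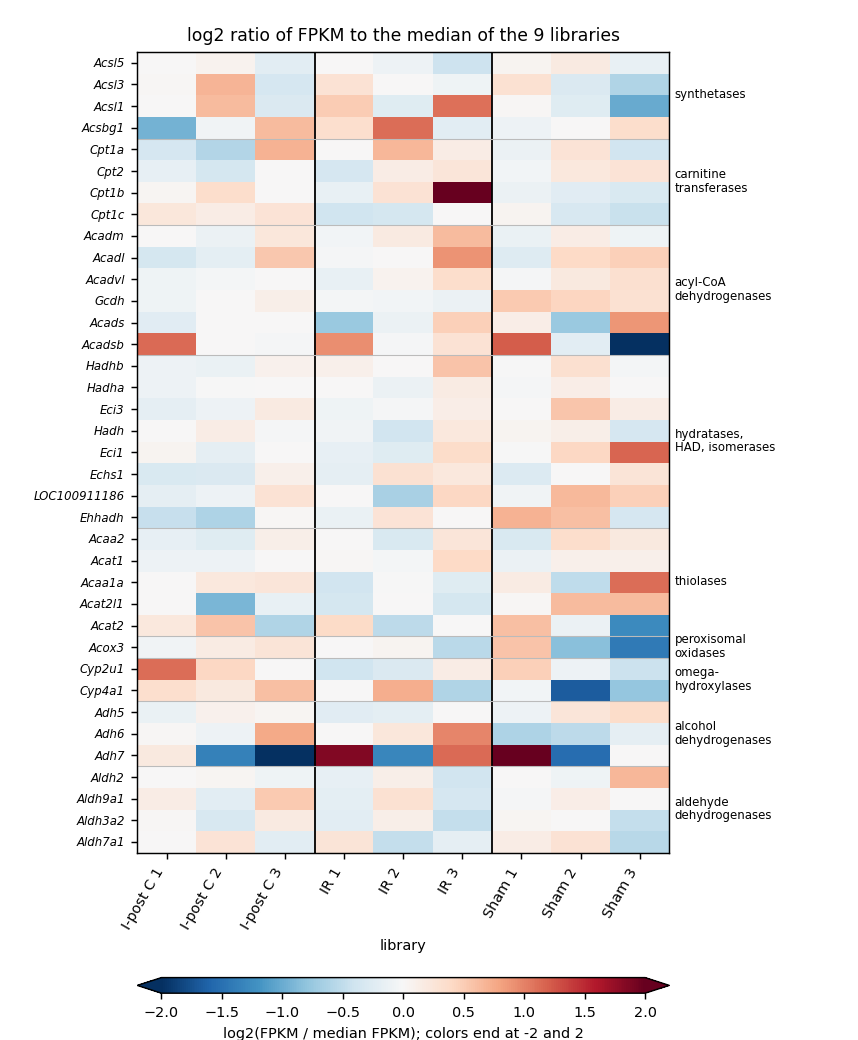
log2 ratio of the FPKM of each of 37 genes to its own median over the 9 libraries, by enzyme role, with I-post C, IR and Sham libraries from left to right. Red is above the median and blue below it. The color scale ends at -2 and 2, which Cpt1b passes in IR 3, Acadsb in Sham 3 and Adh7 in I-post C 3 and Sham 1, and Sham 3 is blue for Acox3 and red for Acads, Acaa1a and Eci1.

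Compartment, as given by the GO terms in the table, was not used to choose the genes. Aldh2, Echs1 and Acadsb, among others, carry neither a mitochondrial nor a peroxisomal term there. The 20 members with a mitochondrial but no peroxisomal term had a median log2FC of 0.03 in IR against Sham, and of -0.18 without IR 3. Their median for I-post C against IR was -0.22, and 0.00 without IR 3. In total the 38 genes summed to 1061, 1071 and 1165 FPKM in I-post C, 1070 (IR 1), 1103 and 1228 FPKM in IR and 1105, 1218 and 1273 FPKM in Sham libraries, and these sums overlapped between the groups.

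Genes that work with the pathway were tested in the same fit. Of the 6 related lists (fatty acid uptake and binding, carnitine handling, electron transfer and auxiliary beta-oxidation, peroxisomal partners, PPAR factors with coactivators and targets, and fatty acid synthesis), 0 genes passed edgeR's test in any comparison, out of 11, 5, 13, 14, 14 and 14 tested. At an unadjusted p under 0.05 there were 2, 0, 0, 3, 2 and 0 in IR against Sham, 2, 0, 0, 0, 0 and 2 in I-post C against IR and 0, 0, 1, 2, 1 and 0 in I-post C against Sham. DESeq2 on the 6 libraries of a comparison passed 1 gene, Pex11a of the peroxisomal partners, in IR against Sham. That fit called 2.36% of all genes in this comparison. Pex11a, which promotes peroxisome division and is named here after its values were seen, had 15.1, 17.9 and 25.4 FPKM in I-post C, 22.5, 30.3 and 16.6 FPKM in IR and 10.8, 13.6 and 8.77 FPKM in Sham libraries. All 6 libraries from clamped lungs lay above the Sham libraries. Of all genes, 5.62% had the IR libraries and 5.56% the I-post C libraries all above Sham. The log2FC of Pex11a was 1.12 in IR against Sham (edgeR adjusted p = 0.194) and 0.75 in I-post C against Sham (edgeR adjusted p = 0.689).

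The most abundant gene of each related list had overlapping groups in each comparison. Fabp5, which binds fatty acids, had a log2FC of 0.26 in IR against Sham, and Slc25a20, which exchanges acylcarnitine for carnitine, had -0.05. Ech1, a dienoyl-CoA isomerase, had -0.28, Scp2, a peroxisomal thiolase and lipid carrier, -0.20, and Ucp2, of the inner mitochondrial membrane, -0.29. Scd2, a desaturase, had a log2FC of -0.54 in IR against Sham and 0.83 in I-post C against IR (edgeR adjusted p = 0.639 and 1.0). Ppara, which encodes PPAR alpha, was listed at no more than 0.771 FPKM in any library.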

How the data were processed

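Per the labels and methods, the authors trimmed reads with Cutadapt 1.9 and aligned them to rn6 with HISAT2 2.2.1. Transcripts came from StringTie, whose version is 2.1.6 in the submitters' processing notes and differs in the methods, with gffcompare for merging and ballgown beside StringTie for FPKM. The authors deposited FPKM values and whole-number counts per gene in the same table. The sources do not state how the counts were made, on which strand, or how reads with several matches were assigned.

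The 15402 genes with a mean of at least 0.5 FPKM were tested with edgeR 4.0.16 (TMM, all 9 libraries, group only), with DESeq2 1.42.0 and limma 3.58.1 beside it. p-values are two-sided and adjusted over all genes tested. The scripts were tested on simulated data. Groups and replicate numbers came from the labels. Members, enzyme roles and lists were chosen with earlier results of these data known. Named genes were the 3 members with the smallest unadjusted p in each comparison and direction and the most abundant member of each role. 1 member, not reported here, is counted in totals, medians and counts and is not drawn. Of the related lists, genes that passed or else the most abundant were taken. A gene name with several entries was represented by that with the highest mean FPKM. Alternatives were other scaling (RLE), no filter on low values, DESeq2, limma at pseudocounts of 0.5 and 1, a replicate block and each library left out, and, chosen after seeing the data, IR 3 and Sham 3 left out together.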

Additional observations from a re-analysis of the deposited data

How the results depend on the processing

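No member passed in any of the alternatives tried (RLE scaling, no filter on low values, DESeq2, limma, the replicate block, each library left out). The median log2FC of the members moved by less than 0.18. On the log2 scale 0.18 is the SD, between libraries of a group, of the median over the members. That SD is not the error of a difference between groups. A move of less than 0.18 still took the median in I-post C against IR from -0.20 to -0.03 without IR 3. With a library left out the median lay between -0.11 and 0.13 in IR against Sham, so its sign depended on single libraries. It lay between -0.27 and -0.03 in I-post C against IR and between -0.29 and -0.07 in I-post C against Sham. The smallest edgeR adjusted p of a member with a library left out was 0.104 in IR against Sham, 0.915 in I-post C against IR and 0.114 in I-post C against Sham. With DESeq2 on all 9 libraries it was 0.0906 in IR against Sham and 0.0915 in I-post C against Sham, both for Gcdh. The number of all genes that passed depended on the tool and on single libraries. In IR against Sham it was 47 with edgeR, 510 with DESeq2 on all 9 libraries, 363 with DESeq2 on the 6 compared, 26 with the replicate block, 0 to 55 with a library left out (0 without IR 2 or Sham 2, 1 without I-post C 2, Sham 1 or Sham 3, 5 without IR 3, 20 without I-post C 1 and 27 without IR 1) and 5 without IR 3 and Sham 3. In I-post C against IR it was 0 with edgeR, 19 and 67 with DESeq2, 0 to 1 with a library left out (1 without IR 3) and 1 without IR 3 and Sham 3. In I-post C against Sham it was 0 with edgeR, 155 and 117 with DESeq2, 1 with limma at either pseudocount, 0 to 8 with a library left out (8 without I-post C 3 and 2 without IR 3) and 2 without IR 3 and Sham 3. The cause was not tested. The labels do not say whether the replicate numbers pair the libraries. Correlations of deviations between same-numbered libraries were 0.45, -0.13 and 0.27 in IR against Sham. They were -0.06, -0.27 and -0.01 in I-post C against IR and 0.11, -0.05 and 0.23 in I-post C against Sham. The same-numbered Sham library gave the highest correlation for replicates 1 and 3 of IR and of I-post C, but not for replicate 2. In I-post C against IR it was never the same-numbered library. Deviations from a mean of 3 libraries are not independent, so these values cannot decide whether the libraries are paired. The block left 0 members passing in all 3 comparisons.

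Of the 60 log2FC values of the 20 named members, 19 changed sign in at least 1 alternative, and 47 of the 1020 alternative fits moved a value by more than its SE. Cpt1b in I-post C against IR was -1.60 with all libraries and 0.00 without IR 3 and Sham 3. For I-post C against IR, limma on FPKM put the median over the genes tested at 0.11 (0.10 at a pseudocount of 1), against -0.01 with edgeR, so comparisons of single FPKM values between these groups carry that shift. With 3 libraries in a group, 18 to 20 of the 38 members had a 95% interval within -1 and 1, and no detection limit was computed.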
